A study of Mus musculus with 15 samples.

Results

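Plb1, Fam151a and Dnase1 were followed as 3 genes out of the 17752 that were listed in at least 1 mouse. They were selected on the difference between high PAC and water in these same mice, as genes that were lower with high PAC, so this difference is given below as a description and was not tested. RNA from the intestine of 15 female C57BL/6 mice was sequenced, with 5 mice in each of 3 groups. Their age was 8 weeks by the labels, whereas the methods of the study give a younger age at the start and the substrain C57BL/6JOlaHsd. Tissue was ileum according to the methods of the study, and each library came from 1 mouse. The water group was gavaged with water alone. The low PAC group received proanthocyanidins (PAC, the condensed tannins of grape) of low molecular weight, and the high PAC group those of high molecular weight, which the study calls medium in its polymer size. Both fractions were given at 200 mg/kg every 2nd day over 10 days, and mice of all groups were gavaged. By the labels the PAC groups differed in the fraction only, and no other dose or time was measured. A whole piece of intestine holds epithelium, muscle and lymphoid tissue together, so fewer cells of a type and less RNA per cell cannot be told apart.

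Plb1 encodes phospholipase B1, an enzyme of the enterocyte brush border that removes fatty acids from dietary phospholipids and also hydrolyses retinyl esters. Fam151a encodes a membrane protein found in the small intestine and kidney, and its biochemical function is poorly described. Dnase1 encodes a secreted endonuclease that degrades extracellular and dietary DNA. GATA4 is a transcription factor of the small intestinal epithelium that is high in the jejunum and falls away towards the end of the ileum, so Gata4 was measured beside the 3 genes.

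In the GENCODE annotation of GRCm38 (mm10), Plb1 (gene ID 665270) lies on chromosome 5 from 32232708 to 32366520, Fam151a (230579) on chromosome 4 from 106733889 to 106748292 and Dnase1 (13419) on chromosome 16 from 4036942 to 4040024, all on the plus strand. Gata4 (14463) lies on chromosome 14 from 63198922 to 63271692 on the minus strand. The RefSeq sequence before the transcript starts of the 3 genes was searched on both strands for 4 GATA words, namely AGATAA with its variant AGATAG followed by TGATAA with its variant TGATAG. The sequences are shown because the 3 genes are compared with Gata4 below, and capitals mark a match. They are from GRCm38.p6, on the plus strand. The first 3 end where an annotated exon begins, and the last 2 show the matches in Dnase1.
Fam151a, chr4:106733665-106733888: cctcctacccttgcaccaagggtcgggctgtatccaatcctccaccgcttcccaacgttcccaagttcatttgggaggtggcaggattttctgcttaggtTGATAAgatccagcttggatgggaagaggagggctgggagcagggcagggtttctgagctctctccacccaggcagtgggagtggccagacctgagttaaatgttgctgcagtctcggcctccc
Dnase1, chr16:4036786-4036941: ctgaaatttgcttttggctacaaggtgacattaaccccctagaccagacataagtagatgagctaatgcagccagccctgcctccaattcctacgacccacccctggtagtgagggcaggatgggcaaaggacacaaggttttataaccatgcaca
Plb1, chr5:32238834-32239083: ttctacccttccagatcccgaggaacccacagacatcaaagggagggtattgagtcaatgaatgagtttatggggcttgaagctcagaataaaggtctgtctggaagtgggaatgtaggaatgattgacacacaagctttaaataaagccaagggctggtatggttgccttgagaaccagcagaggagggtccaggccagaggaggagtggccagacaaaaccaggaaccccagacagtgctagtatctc
Dnase1 match, chr16:4036936-4036965: tgcacaaacacgTTATCAgactgtttttac
Dnase1 match, chr16:4036990-4037019: tgtcagcacgtgCTATCAgcctgcccaggg

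Fam151a held 1 match, TGATAA on the plus strand, 150 bases before the RefSeq start. Dnase1 held 2 matches on the minus strand, TGATAA at 88 bases and TGATAG at 34 bases before the start at 4037036. Both lie in a stretch that GENCODE annotates as exon of a longer Dnase1 transcript. No match was found in the 250 bases before the RefSeq start of Plb1 at 32239084 or before its second start at 32353580. The same words occurred in 26.54% of 32851 such windows of 250 bases, so a match is common and says only that these letters are present. The HNF1 core GTTAAT, present in 6.432% of the windows, was found in Dnase1 on the minus strand and in neither other gene.

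Levels are given in FPKM, which scales the fragments of a gene to its length and to the mapped fragments of the library. The expected count is the estimated number of sequenced fragments behind that level. Libraries held between 15963086 and 17903886 expected counts in total, so a gene's counts can be read across mice with little change from depth. With water, Plb1 was the 314th highest of 17196 genes, Fam151a the 1392nd, Dnase1 the 4299th and Gata4 the 7411th. The order of the 3 genes, Plb1 over Fam151a over Dnase1, was the same in each of the 15 mice.

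With water, Plb1 was measured at 182, 85.6, 194, 340 and 351 FPKM in mice 1 to 5. In the low PAC mice it was at 32.7, 13.0, 103, 252 and 231 FPKM, and in the high PAC mice at 35.7, 195, 35.8, 17.6 and 53.3 FPKM. The groups overlapped, because 3 low PAC mice and 1 high PAC mouse reached the range of the water mice. The group means were 231 ± 113 FPKM (SD, n = 5) with water, 126 ± 111 with low PAC and 67.5 ± 72.5 with high PAC.

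Fam151a followed the same mice. It was measured at 39.7, 20.01, 39.7, 78.6 and 96.2 FPKM with water, at 9.21, 2.99, 24.97, 44.0 and 58.5 FPKM with low PAC and at 9.09, 40.0, 6.41, 6.43 and 18.3 FPKM with high PAC. Low PAC mouse 2 was the lowest of all 15 mice in both Plb1 FPKM and Fam151a FPKM, and water mouse 5 was the highest in both. Group means were 54.8 ± 31.4, 27.9 ± 23.3 and 16.1 ± 14.3 FPKM (SD, n = 5) with water, low PAC and high PAC.

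Dnase1 was lower in level and rested on fewer counts, between 41 and 764 per mouse. It was measured at 6.40, 3.74, 12.1, 24.7 and 35.8 FPKM with water, at 2.79, 1.88, 5.85, 5.28 and 12.3 FPKM with low PAC and at 3.46, 10.98, 3.49, 2.49 and 2.41 FPKM with high PAC. Water mice 4 and 5 were above every mouse of both PAC groups, whereas water mouse 2 lay within them. Group means were 16.5 ± 13.4, 5.62 ± 4.09 and 4.57 ± 3.62 FPKM (SD, n = 5).

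Gata4 had the lowest mean FPKM of the 4 genes in each group, with 23 to 742 counts per mouse. It was at 4.58, 1.69, 4.04, 12.5 and 12.7 FPKM with water, at 0.48, 0.91, 1.97, 6.23 and 4.19 FPKM with low PAC and at 0.58, 4.23, 0.75, 0.72 and 0.39 FPKM with high PAC. In all 4 genes water mice 4 and 5 were the highest of their group, water mouse 2 the lowest of its group and high PAC mouse 2 the highest of its group.

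**Figure D1:**
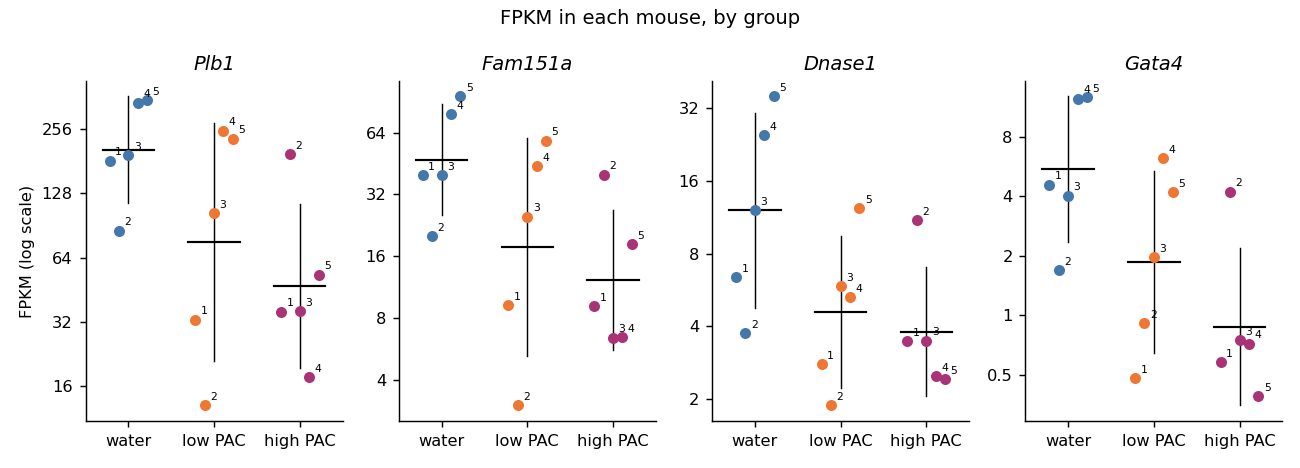
FPKM (log scale) of Plb1, Fam151a, Dnase1 and Gata4 in each mouse, with the mouse number beside each point. Horizontal bars are the means and vertical bars 1 SD of the log2 FPKM of 5 mice, and high PAC mouse 2 stands above the other 4 high PAC mice in every panel.

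Over all 15 mice, group differences included, the highest mouse held 27.1 times the FPKM of the lowest for Plb1, 32.2 times for Fam151a, 19.0 times for Dnase1 and 32.5 times for Gata4. With groups kept apart, the SD between mice on the log2(FPKM + 0.1) scale was 1.38 for Plb1, 1.31 for Fam151a and 1.09 for Dnase1, against a median of 0.177 over the 12429 genes whose FPKM averaged 1 or more. By this SD, Plb1 ranked 70th, Fam151a 81st and Dnase1 131st among those genes.

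The FPKM of Plb1 also depended on a gene length that differed between libraries. Plb1 has several transcripts, and each library had its own deposited length. It ran from 4189 to 4848 bases in the water mice, from 2764 to 4780 with low PAC and from 1340 to 4605 with high PAC. High PAC mouse 3 had the shortest length and, with 776, the fewest Plb1 counts of all 15 mice. Its FPKM of 35.8 was nevertheless next to that of high PAC mouse 1, which held 2366 counts at a length of 3973 bases and 35.7 FPKM. Low PAC mouse 4, at 2764 bases, had a higher FPKM than low PAC mouse 5 from fewer counts, 10801 against 17711. Fam151a had 1 length of 1966 bases in every library, and that of Dnase1 stayed between 1296 and 1309 bases. Counts of Plb1 averaged 17566 ± 8781 (SD, n = 5) with water, 8113 ± 6743 with low PAC and 4112 ± 4615 with high PAC.

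**Figure D2:**
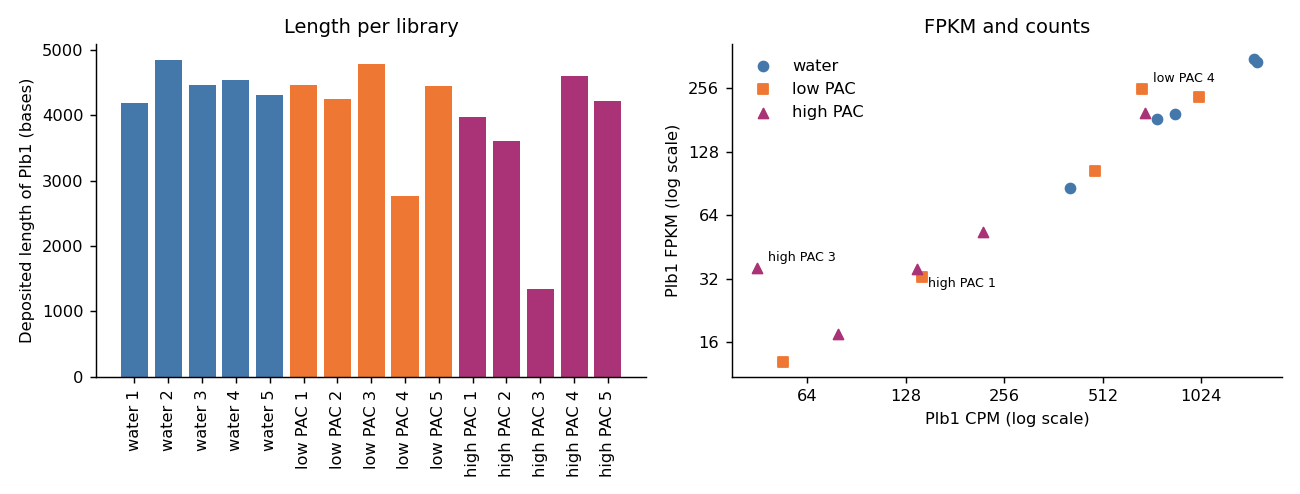
Left, the length of Plb1 in bases that was deposited for each library; right, Plb1 FPKM against Plb1 CPM, its count scaled to the library total (both log scales), 1 point per mouse. High PAC mouse 3, with 1340 bases, lies above the line of the other mice, and low PAC mouse 4, with 2764 bases, lies above low PAC mouse 5.

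Reads that could belong to another gene were considered next. Acot11, an acyl-CoA thioesterase gene on the opposite strand, shares 1263 of the 1923 exonic bases of Fam151a, and strand use in counting was not given in the sources used here. Acot11 stayed between 9.31 and 13.6 FPKM over the 15 mice, while Fam151a ranged from 2.99 to 96.2. Trap1, a mitochondrial chaperone gene, shares 54 exonic bases with Dnase1 and stayed between 35.1 and 48.0 FPKM. The antisense genes Gm15879 over Dnase1 and Gm36840 over Plb1 were not listed in any mouse. Reads from these pairs cannot be told apart without strand.

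For low PAC and water, edgeR's quasi-likelihood model was fitted to expected counts of the 14386 genes left by a filter on low counts, which all 3 genes passed. This comparison shares its water mice with the one the genes were selected on. The log2 fold change was -1.14 (SE 0.74) for Plb1, -1.03 (SE 0.66) for Fam151a and -1.59 (SE 0.61) for Dnase1. None passed the threshold, with an adjusted p of 0.976 for Plb1, Fam151a and Dnase1 alike. The unadjusted p was 0.141 for Plb1 and Fam151a and 0.0193 for Dnase1. Of all genes tested, 0% passed the adjusted threshold (0 genes with edgeR and 2 with DESeq2), 520 had an unadjusted p under 0.05 and 2.21% had such a p and were lower with low PAC. Of the 520 genes 318 were lower and 202 higher, whereas edgeR with upper-quartile normalization gave 210 lower and 312 higher. The 520 became 293 without water mouse 3 and 804 without water mouse 2.

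The exact two-sided permutation test of log2(FPKM + 0.1), 5 against 5 mice, gave p = 0.175 for Plb1, p = 0.159 for Fam151a and p = 0.103 for Dnase1, where the smallest possible p is 0.0079. From CPM, the count scaled to the library total without the length, the exact permutation test gave p = 0.119 for Plb1. In each of the 3 genes 2 of the 5 low PAC mice were below the lowest water mouse. Only 0.111% of the genes tested had all 5 low PAC mice below all 5 water mice, and the 3 genes were not among them.

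The low and high PAC fractions were compared at the same dose and time. The high PAC mice are those in which the genes were selected as lower, so these differences and their p are not independent of the selection, which favours lower values with high PAC. The log2 fold change of high PAC against low PAC was -1.03 for Plb1 (95% interval -2.59 to 0.53), -0.82 for Fam151a (-2.25 to 0.61) and -0.33 for Dnase1 (-1.65 to 0.99). With edgeR the adjusted p was 0.896 for Plb1 and Fam151a and 0.944 for Dnase1. Exact permutation tests gave p = 0.524 for Plb1, p = 0.571 for Fam151a and p = 0.659 for Dnase1. No difference between the fractions was detected in these genes, and the intervals include differences of over 1 log2 unit in the lower direction for all 3, so that the fractions were not shown to act alike. Among all genes, 0% passed at an adjusted p under 0.05 (0 genes with edgeR and with DESeq2), 559 had an unadjusted p under 0.05, and 2.05% had such a p and were lower with high PAC. Of the 559 genes 295 were lower and 264 higher, whereas edgeR with upper-quartile normalization gave 167 lower and 509 higher. No high PAC mouse lay below the lowest low PAC mouse in Plb1, Fam151a or Dnase1 FPKM, and 0.0904% of all genes had every high PAC mouse below every low PAC mouse. Without high PAC mouse 2 the log2 fold changes were -2.01 for Plb1, -1.51 for Fam151a and -0.98 for Dnase1. Without low PAC mouse 5 they were -0.55 for Plb1, -0.36 for Fam151a and 0.17 for Dnase1, so the direction for Dnase1 turned.

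In the comparison on which the genes were chosen, high PAC against water, the log2 fold changes were -2.17 (SE 0.76) for Plb1, -1.85 (SE 0.68) for Fam151a and -1.92 (SE 0.62) for Dnase1. Among all genes, 0.0139% passed an adjusted p under 0.05 with edgeR in this comparison (2 genes, against 112 with DESeq2 and 136 with DESeq2's own filter), 10.4% were lower with an unadjusted p under 0.05, and 0.646% had every high PAC mouse below every water mouse. With that unadjusted p, 1500 genes were lower and 628 higher. The balance turned with upper-quartile normalization, where edgeR gave 816 lower and 1505 higher. High PAC mouse 2 decided much of the size: without it the values were -3.15 for Plb1, -2.54 for Fam151a and -2.57 for Dnase1. Gata4 was at a log2 fold change of -1.42 (SE 0.73) with low PAC and -2.48 (SE 0.76) with high PAC against water.

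**Figure D3:**
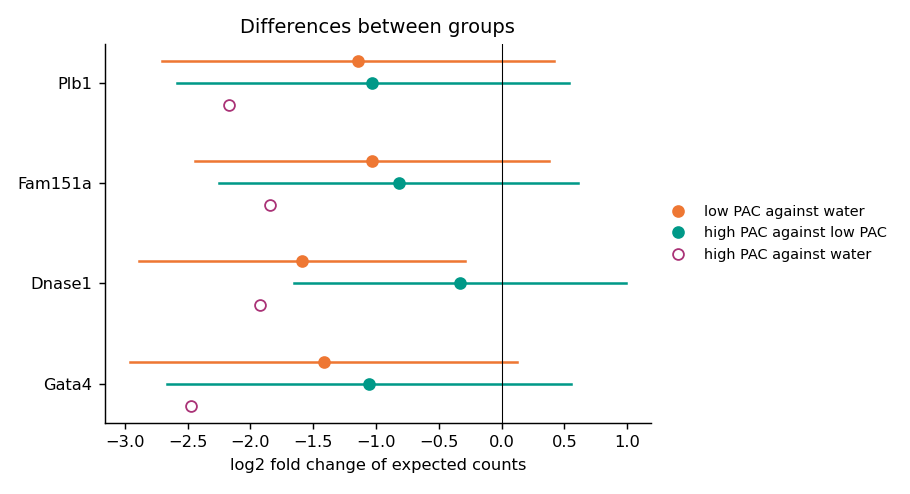
Log2 fold changes of expected counts from edgeR for Plb1, Fam151a, Dnase1 and Gata4, with 95% intervals for low PAC against water and high PAC against low PAC. Open points are high PAC against water, on which the 3 genes were chosen, without an interval, and all points lie below 0.

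Whether the 3 genes moved together from mouse to mouse was examined after the mean of each group was subtracted, so that the difference between groups did not enter. The 6 relations were proposed with results of the same mice known, so they are given as a description without a test. Values are Pearson's r and Spearman's rho of log2(FPKM + 0.1) over 15 mice. For Plb1 and Fam151a, r was 0.975 and rho 0.956. Within the groups r was 0.987 with water, 0.991 with low PAC and 0.938 with high PAC. Without the 2 mice farthest from the median, low PAC mice 2 and 5, r was 0.959.

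For Dnase1 and Plb1, r was 0.820 and rho 0.839. For Dnase1 and Fam151a, r was 0.828 and rho 0.829. Without water mouse 5 and high PAC mouse 2, r was 0.794 with Plb1 and 0.787 with Fam151a. The lowest r of Dnase1 within a group was 0.735, with Fam151a in the high PAC mice.

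Gata4 was then set beside the 3 genes. Its r was 0.848 with Plb1, 0.805 with Fam151a and 0.861 with Dnase1. The rho was 0.821, 0.794 and 0.850 in the same order. Without low PAC mouse 4 and high PAC mouse 2, r was 0.755 with Plb1, 0.727 with Fam151a and 0.901 with Dnase1. Within groups r with Gata4 ranged from 0.673, for Fam151a in the high PAC mice, to 0.993, for Fam151a in the water mice.

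**Figure D4:**
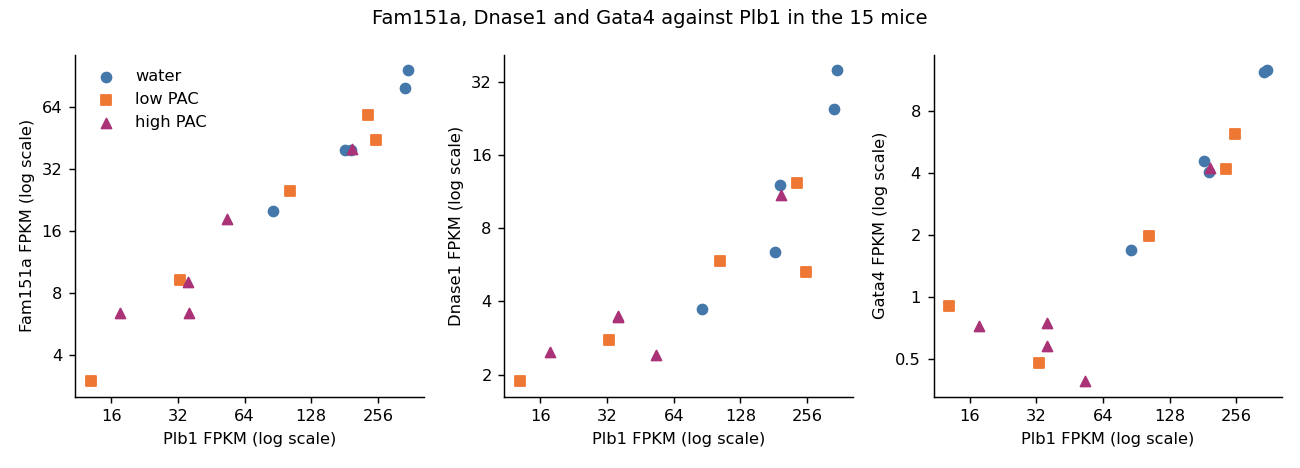
FPKM of Fam151a, Dnase1 and Gata4 against Plb1 FPKM (log scales), 1 point per mouse, with symbols for the groups. Fam151a lies closest to a line (r = 0.975 with group means removed), and Dnase1 (0.820) and Gata4 (0.848) scatter more.

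The tie between Plb1 and Fam151a also showed in their ratio. Fam151a held between 8.81 and 15.7 counts per 100 Plb1 counts in 14 mice. Over all 15 mice, high PAC mouse 3 included, both genes varied over 32-fold in CPM. The exception to the ratio was high PAC mouse 3, with 26.8, the mouse with the short Plb1 length. In FPKM its ratio was 17.9 per 100, within the 17.5 to 36.6 of the other mice. Dnase1 varied more against Fam151a, from 7.78 to 40.8 counts per 100.

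The genes most like each of the 3 were ranked by the same r, as a description, over the 12428 other genes of that kind. Fam151a was the closest of all to Plb1, and Plb1 the closest to Fam151a. After Fam151a, Plb1 was most like Tm4sf5 (r = 0.955), a tetraspanin-like membrane protein, Anxa13 (0.951), an annexin of the intestinal epithelium, Ms4a10 (0.951) and Glud1 (0.940), the mitochondrial glutamate dehydrogenase. Fam151a was most like Lct (0.960), the lactase of the brush border, then Anxa13 (0.952), Slc25a45 (0.949), a mitochondrial carrier, and Slc5a11 (0.943), an inositol transporter. These genes varied less than Plb1 or Fam151a, with a highest mouse between 2.2 and 5.5 times the lowest, except Lct with 84.3 times.

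Dnase1 had other neighbours. It was most like Rragd (r = 0.917), a Rag GTPase of nutrient sensing, Leap2 (0.907), which encodes a secreted peptide that opposes ghrelin, St3gal6 (0.894), a sialyltransferase, and Igf2 (0.892), a growth factor. Fam151a ranked 25th and Plb1 30th for Dnase1. Dnase1 in turn ranked 60th for Plb1 and 67th for Fam151a. Gata4 ranked 38th for Plb1, 91st for Fam151a and 14th for Dnase1.

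At the other end, Endod1, an endonuclease domain gene, went against Plb1 (r = -0.949) and Fam151a (r = -0.912), and Bco1, the enzyme that cleaves beta-carotene to retinal, against Plb1 (-0.884) and Dnase1 (-0.913). Mal, a raft protein gene, was lowest beside Fam151a (-0.912). Beside Dnase1, Hoxb6, a homeobox gene of posterior position, was 2nd lowest after Bco1 (-0.913 for both). Bco1 was at 1.47 ± 0.59 FPKM with water, 2.06 ± 0.84 with low PAC and 2.69 ± 0.83 with high PAC (SD, n = 5).

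Other members of the same enzyme families were measured beside the 3 genes. Of 29 phospholipases and lysophospholipid enzymes 27 were tested, of which 0 passed in any comparison with edgeR, and their median log2 fold change was 0.01 with low PAC against water, where that of all genes was -0.01. Without Plb1 the lysophospholipid enzymes Lypla1 and Lpcat3 were the most abundant of them, and they stayed within 123 to 175 and 110 to 160 FPKM over all mice. Their r with Plb1 was near 0 for Lypla1 and 0.018 for Lpcat3. Of 16 deoxyribonucleases 14 were tested and 0 passed, with a median of -0.02 for low PAC against water. Pld3 and Tatdn2 had an r of 0.190 and 0.003 with Dnase1, and Trex1, the exonuclease of cytosolic DNA, 0.334. Chosen after its values were seen, Dffb, the nuclease that cuts DNA in apoptosis, had the highest r of the family with Dnase1 (0.840), although it ranged only from 3.72 to 5.10 FPKM over the 15 mice. Fam151b, the paralog of Fam151a, was at 2.42 ± 0.27, 2.17 ± 0.33 and 2.21 ± 0.41 FPKM (SD, n = 5) with water, low PAC and high PAC, and its r with Fam151a was 0.265. For phospholipases the median r was -0.096 with Plb1, and for deoxyribonucleases 0.153 with Dnase1, against 0.042 and 0.036 over all genes.

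Among the transcription factors, Gata4 was the only 1 of 16 listed with an r over 0.7 with any of the 3 genes. Gata6 had an r of 0.645 with Plb1, 0.642 with Fam151a and 0.387 with Dnase1, and Gata5 one of 0.160, 0.233 and -0.056. The most abundant of the list were Hnf4a, a nuclear receptor of the enterocyte, Maf and Klf5, and their r with Plb1 was -0.187, 0.267 and 0.018. Of the 16 factors 0 passed with edgeR in any comparison, and 13 had a log2 fold change below 0 with low PAC against water (median -0.09). Also 13 were below 0 for high PAC against water (median -0.25), and 13 for high PAC against low PAC (median -0.16).

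Markers of enterocytes and of intestinal position were then set beside the 3 genes. All 26 brush border genes were detected, 0 passed with edgeR, and all 26 had a log2 fold change below 0 for low PAC against water (median -0.22, Vil1 -0.19, Anpep -0.25 and Fabp2 -0.35). All 26 were also below 0 for high PAC against water (median -0.38) and for high PAC against low PAC (median -0.19). Their summed level was 17155 to 20898 FPKM with water, 14533 to 18607 with low PAC and 9653 to 17536 with high PAC. The lowest of these was high PAC mouse 3, and the other 4 high PAC mice lay between 15823 and 17536. The same mouse had the highest sums of all mice for the goblet cell list (16849), the distal ileum list (12078) and the list for Paneth cells and crypt base (44122). Most of the distal ileum sum was Fabp6, which reached 10620 FPKM, so that sum mostly follows this gene and not the whole list. Without high PAC mouse 3 the log2 fold changes of high PAC against low PAC were -0.75 for Plb1, -0.60 for Fam151a and -0.23 for Dnase1, and those of high PAC against water -1.88, -1.62 and -1.82. Across mice the median r of the brush border genes was 0.171 with Plb1, 0.258 with Fam151a and 0.108 with Dnase1. Of these genes Lct (0.922 with Plb1) and Fabp2 (0.811 with Plb1) were among the highest, whereas Anpep, the aminopeptidase N gene, had an r of -0.052 with Plb1.

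The list for the distal ileum went the other way. All 12 of its genes were detected, and Fabp6, the ileal bile acid binding protein gene, ranged from 4196 to 10620 FPKM. The median r of its 12 genes was -0.460 with Plb1, -0.476 with Fam151a and -0.679 with Dnase1, and 11 of 12 were below 0 for Plb1 and Dnase1. Chosen after their values were seen, Hoxb7, Hoxb8 and the bile acid receptor gene Nr1h4 had an r of -0.897, -0.911 and -0.807 with Dnase1. Slc10a2, the ileal bile acid transporter, chosen in the same way, had an r of -0.670 with Dnase1 and -0.511 with Plb1. The list for the proximal small intestine had a median r of 0.303 with Plb1, 0.357 with Fam151a and 0.370 with Dnase1, and the iron exporter gene Slc40a1 of that list, also chosen after its values were seen, stood apart with -0.881 for Plb1. This list also holds Gata4 and Lct. Between groups, 12 of 13 tested proximal genes had a log2 fold change below 0 for low PAC against water (median -0.38) and 11 of 13 for high PAC against water (median -0.55), with 0 passing in edgeR. Apoa4, an apolipoprotein gene of that list, was at -0.87 and -1.17 in these comparisons. The distal list had 10 of 12 genes above 0 for low PAC (median 0.12) and 6 of 12 for high PAC (median 0.03), also with 0 passing. Of the distal genes, Hoxb6 was at 0.75 with low PAC and 0.87 with high PAC, Hoxb7 at 0.71 and 0.96, and Hoxb8 at 0.89 and 1.08. Apoa4 and these 3 Hox genes were singled out after their values were seen. The part of position along the intestine in the differences between groups was not tested.

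**Figure D5:**
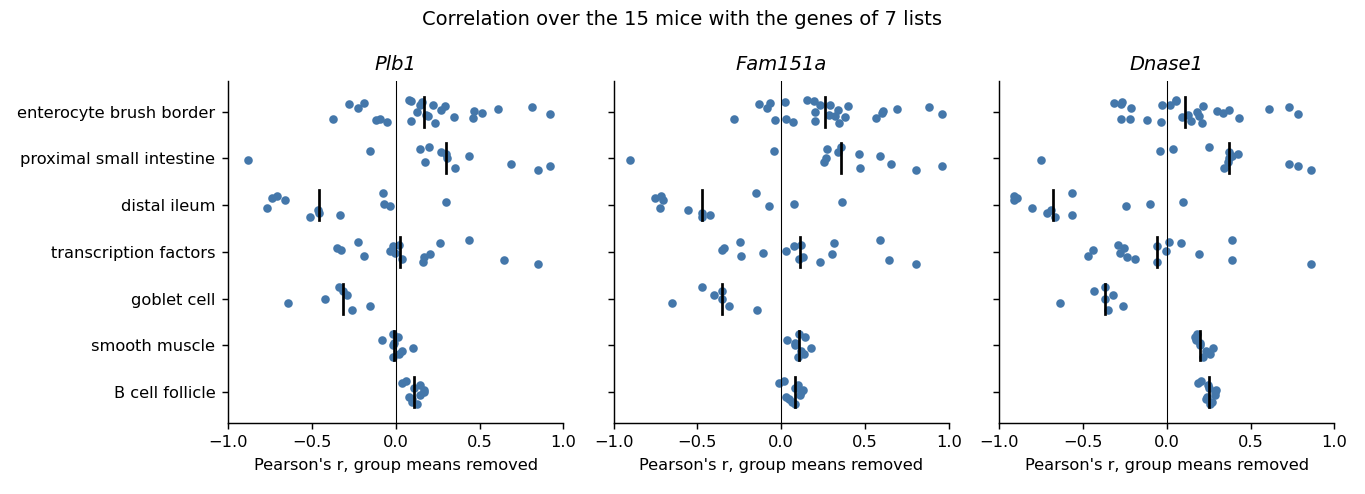
Pearson's r of Plb1, Fam151a and Dnase1 with each gene of 7 lists over the 15 mice, with group means removed; points are genes and black bars medians. The distal ileum genes lie mostly below 0 and those of the proximal small intestine mostly above 0, while the smooth muscle and B cell follicle genes lie between -0.081 and 0.179 for Plb1 and Fam151a and between 0.168 and 0.295 for Dnase1. The mice fall into separate clusters in the B cell follicle genes, so the r of these genes mostly compares the clusters.

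Other cell types were measured in the same mice. All 9 smooth muscle markers had a log2 fold change above 0 for low PAC against water (median 0.32), with a summed level of 283 to 949 FPKM with water, 595 to 1038 with low PAC and 714 to 1141 with high PAC. All 9 were also above 0 for high PAC against water (median 0.42) and against low PAC (median 0.10). All 11 B cell follicle markers were below 0 for low PAC against water (median -1.18), whereas 8 of 11 were above 0 for high PAC against water (median 0.11) and all 11 for high PAC against low PAC (median 1.35). Their summed level was 9.41 to 184 FPKM with water (median 93.3), 9.83 to 91.6 with low PAC (median 11.1) and 6.82 to 270 with high PAC (median 9.73). Mice fell into separate clusters, at 6.82 to 11.1 FPKM and at 82.3 to 270 FPKM, with mice of every group in both. High PAC mice 1 and 3 were in the upper cluster, at 270 and 257 FPKM, and the other high PAC mice lay between 6.82 and 9.73 FPKM. The fold changes of this list rest on the mice of the upper cluster. Of these lists 0 genes passed with edgeR. The median r of Plb1 was -0.008 with the smooth muscle list and 0.112 with the B cell follicle list, and of Dnase1 0.197 and 0.253. An r with the B cell follicle list mostly compares the clusters of mice. The 7 goblet cell genes had a median r of -0.312 with Plb1 and the 8 genes of Paneth cells and crypt base one of -0.093. The mesothelium genes had a median r of 0.126 with Plb1, 0.242 with Fam151a and 0.314 with Dnase1. All 6 had a log2 fold change above 0 for low PAC (median 0.56) and for high PAC against water (median 0.82), and 0 passed with edgeR. The part of these cell types in the differences was not tested. Of 12 pancreatic acinar markers, which were included because the pancreas also makes Dnase1, 9 were listed, Pnlip, Cela2a and Amy2a5 were not listed in any mouse, and the summed level was 2.83 to 5.01 FPKM. This sum was above the FPKM of Dnase1 in 7 of 15 mice, 1 with water, 2 with low PAC and 4 with high PAC. The sum came mostly from Cela1 (1.35 to 2.84 FPKM) and Pnliprp1 (0.71 to 2.22 FPKM), whereas Cpa1, Prss2, Ctrb1, Cel and Cela3b were at 0.08 FPKM or less in every mouse. The other listed markers, Cpb1 and Pla2g1b, reached 0.47 and 0.31 FPKM.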

How the data were processed

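RNA-seq of 15 mice was analysed from the gene tables deposited for each mouse. The authors cleaned paired-end reads with SOAPnuke and mapped them with Bowtie2 according to the methods, while the submitters' processing notes name HISAT, DESeq2 and mm10. The counting tool was not given in the sources used here. The authors deposited an expected count per gene, which is not normalized, and its FPKM, scaled to length and library. The gene length in bases, deposited beside them, is specific to the library. A gene missing from a table was set to 0.

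The rounded expected counts went into edgeR 4.0.16 in R 4.3.3 (TMM normalization, quasi-likelihood test, 1 model of 3 groups and 15 mice, edgeR's filter on low counts), with Benjamini-Hochberg adjustment over 14386 genes and a threshold of 0.05. DESeq2 1.42.0 and limma 3.58.1 were alternatives. The method was tested on simulated data. Members' FPKM were compared by exact permutation tests (scipy 1.17.1) on log2(FPKM + 0.1). Counts of members are large enough that the spread between mice, and not depth, sets the precision. Mice are the replicates, grouped by the labels.

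The members, gene lists and relations were chosen with earlier results of these data known. The genes named were the members and Gata4, the 5 most and 2 least like genes of each member, genes past the threshold and the 3 of highest mean FPKM in the lists of phospholipases, deoxyribonucleases, Fam151 genes, brush border genes and transcription factors, and genes overlapping a member. One gene that this rule names is not reported here. Other genes named in the text, among them Gata5, Gata6, Fabp6, Slc10a2, Slc40a1, Nr1h4, Hoxb7, Hoxb8, Apoa4, Dffb and the acinar markers, lie outside this rule and were chosen after their values were seen. Alternatives were another normalization, no filter, DESeq2, limma, only the 2 groups compared, a replicate block, another pseudocount and leaving out each mouse. DESeq2 with its own filter and the permutation tests on CPM were added after seeing the data.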

Additional observations from a re-analysis of the deposited data

Results flagged for a closer look

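In each group of 5 mice, the gap between the highest or lowest mouse and its nearest neighbour was compared with the range of the group, over 45 groups of values for Plb1, Fam151a, Dnase1, Gata4, the Plb1 length and the ratios. For normally distributed values, a gap over 0.71 of the range is expected by chance in about 1 in 20 groups, and 7 were found. The values were not put on a log scale, although these genes spread widely between mice, so that rate is only a guide.

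High PAC mouse 2 accounted for 6 of them. Its Plb1 FPKM was 195.1 where the other high PAC mice lay between 17.59 and 53.27, and its Plb1 count was 12097 where the others lay between 776 and 3895. Its Dnase1 FPKM was 10.98, against 2.41 to 3.49 in the others, from 236 counts against 52 to 73. Its Gata4 FPKM was 4.23, against 0.39 to 0.75, from 247 counts against 23 to 43. Fam151a was also highest in this mouse but its gap was smaller. The 6 values come from 1 library and 3 related genes, so they are not independent of each other. The other one was the deposited length of Plb1 in low PAC mouse 4, 2764 bases against 4247 to 4780 in the other low PAC mice.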

How the results depend on the processing

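For 24 results, 396 alternative values were computed, of which 387 kept the direction and the side of the threshold or stayed near the first value. This is a weak check. For high PAC against water, near meant within the SD between mice, 1.38 for Plb1, 1.31 for Fam151a and 1.09 for Dnase1. The tested fold changes began at an adjusted p of 0.896 or more with edgeR, far from the threshold. The 6 relations were scored by a permutation p, which is not given as a test here. The log2 fold change of Dnase1 for high PAC against low PAC turned from -0.33 to 0.17 without low PAC mouse 5. Genes called for low PAC against water numbered 0 with edgeR, 2 with DESeq2, with and without its own filter, and 0 to 1 when 1 mouse was left out. For high PAC against water there were 2 with edgeR, 112 with DESeq2, 136 with its own filter, 4 with only the mice of these groups, and 2 to 11 when 1 mouse was left out, with 4 without water mouse 2 and 11 without high PAC mouse 2. The causes were not tested. For high PAC against low PAC 0 were called throughout.

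Leaving out each mouse in turn, the log2 fold change for low PAC against water ranged from -1.61 to -0.85 for Plb1, -1.49 to -0.74 for Fam151a and -2.10 to -1.13 for Dnase1, lowest without low PAC mouse 5. For high PAC against low PAC it ranged from -2.01 to -0.55, -1.51 to -0.36 and -0.98 to 0.17. The r of Plb1 with Fam151a stayed between 0.961 and 0.983, and the lowest r of all 6 relations was 0.757, for Fam151a with Gata4 without high PAC mouse 2.

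Groups share replicate numbers, and 5 same-numbered pairs per comparison cannot settle whether the numbers paired the mice. Deviations of same-numbered mice correlated over 0.1 in 3 of 5 pairs of water and low PAC, against 5 of 20 pairs with different numbers. These counts were 3 of 5 against 8 of 20 for water and high PAC and 0 of 5 against 8 of 20 for low and high PAC. In the same order, mean r was 0.153 against -0.039, 0.127 against -0.033 and -0.133 against 0.035. With a replicate block the log2 fold changes for low PAC against water were -1.28, -1.17 and -1.55 for Plb1, Fam151a and Dnase1, for high PAC against low PAC -1.08, -0.63 and -0.06, and no call of the 3 genes changed. The genes called numbered 0 for low PAC against water, 2 for high PAC against water and 0 for high PAC against low PAC.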
